A study of Mus musculus with 22 samples.

Results

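Long non-coding genes that carry small nucleolar RNAs (snoRNAs) in their introns are described here, 9 in number, across days, cell types and experiments of mouse gastruloid culture: Zfas1, Gas5, Snhg1, Snhg3, Snhg5, Snhg6, Snhg8, Snhg12 and 1110038B12Rik. They were taken by symbol from the feature lists, 9 of 32285 features. The 9 genes were proposed with measured values of these cells in view, and the record does not say from which contrast. Differences in MULTI-seq 3, the experiment that spans all days, between days and between classes of cells, and between MULTI-seq 3 and the other experiments, are therefore given as a description with no p printed. A gene is said to be called where its adjusted p was under 0.05 in an edgeR fit over all genes, and in those comparisons the share of all genes called stands beside such counts with nothing read from either. Comparisons within MULTI-seq 2 carry p-values, but whether their values also entered the choice of genes is not recorded. All 9 passed the filter on low counts in every fit of whole gastruloids and of neural and mesodermal cells.

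A snoRNA host gene is transcribed and spliced, and the snoRNAs are then trimmed out of the removed introns. Box C/D snoRNAs (symbols beginning with Snord) guide 2'-O-methylation, and H/ACA snoRNAs (symbols beginning with Snora) guide the conversion of uridine to pseudouridine, mostly in ribosomal RNA. The spliced host transcript is often short-lived because nonsense-mediated decay removes it, and many hosts begin at a pyrimidine tract of the kind found in ribosomal protein genes. Gas5 was first found in growth-arrested cells, and Zfas1 is named for its antisense position at the start of Znfx1. The libraries captured 3' ends of polyadenylated RNA, so all values are of host transcripts, and the snoRNAs themselves were not measured.

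In GENCODE M21 on GRCm38 the 9 genes hold 34 entries of snoRNA type, all 34 inside introns and on the host's strand. They include Mir5117 (in Gas5), a microRNA symbol, and 2 nearly coincident entries each for Snord80 and Snora16a, so distinct snoRNAs are fewer. Gas5 (chr1:161034422-161038539, plus strand) holds 10 entries, among them Snord78, Snord80 and Snord47. Snhg1 (chr19:8723475-8726443, plus) holds 8, among them Snord22. Zfas1 (chr2:167062934-167065862, plus) holds 3, among them Snord12. Snhg5 (chr9:88521050-88522929, minus) holds Snord50a and Snord50b, Snhg6 (chr1:9941959-9944118, minus) holds Snord87, and 1110038B12Rik (chr17:34950238-34952471, minus) holds Snord52 and Gm25744. The H/ACA hosts are Snhg3 (chr4:132348014-132353686, minus) with Snora73a and Snora73b, Snhg8 (chr3:123507552-123508404, minus) with Snora24, and Snhg12 (chr4:132308623-132311024, plus) with Snora16a, Snora44, Snora61 and the box C/D Snord99. Snhg12 and Snhg3 lie 36989 bases apart on opposite strands. Of the 5673 bases of Snhg3, 5592 lie within Rcc1 on the same strand, so reads of the 2 genes could be split in counting. Zfas1 overlaps Znfx1 by 82 bases, Gas5 overlaps Zbtb37 by 428 and Snhg6 overlaps Mcmdc2 by 127, each on the opposite strand, and whether strand entered the counting was left unstated by the labels.

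The bases around the transcription start are shown for 7 of the genes because each holds at least 1 of 2 letter patterns that the choice of genes did not use. Each line gives 45 bases before the start and 25 from the start on, read from RefSeq on GRCm38.p6. Capitals mark TATAAA or TATATA, read on either strand and beginning 40 to 20 bases before the start, and a run of 5 or more C or T that touches the 5 bases centred on the start.
Gas5, chr1:161035121-161035190, plus strand: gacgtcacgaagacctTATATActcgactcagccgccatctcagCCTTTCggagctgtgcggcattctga
Snhg8, chr3:123508312-123508381, minus strand: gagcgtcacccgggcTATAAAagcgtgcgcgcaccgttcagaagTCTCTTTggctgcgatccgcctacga
Snhg12, chr4:132308633-132308702, plus strand: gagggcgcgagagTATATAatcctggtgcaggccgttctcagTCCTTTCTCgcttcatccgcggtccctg
1110038B12Rik, chr17:34952444-34952513, minus strand: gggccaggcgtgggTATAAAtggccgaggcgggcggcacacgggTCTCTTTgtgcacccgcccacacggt
Snhg5, chr9:88522873-88522942, minus strand: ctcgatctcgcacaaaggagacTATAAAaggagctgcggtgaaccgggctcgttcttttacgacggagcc
Snhg1, chr19:8723442-8723511, plus strand: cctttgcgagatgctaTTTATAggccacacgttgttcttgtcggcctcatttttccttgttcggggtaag
Snhg3, chr4:132353662-132353731, minus strand: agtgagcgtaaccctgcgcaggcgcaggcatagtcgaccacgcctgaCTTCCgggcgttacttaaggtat
Gas5, Snhg8, Snhg12 and 1110038B12Rik held both patterns, Snhg5 and Snhg1 (on the reverse strand) the first alone, and Snhg3 the second alone. The table held 10 starts for 8 of the 9 genes, Gas5 and 1110038B12Rik having 2 each, and Snhg6 had no entry. The 2 starts of 1110038B12Rik lie 3 bases apart and share these letters, so each pattern of theirs is counted 2 times below. A TATAAA or TATATA at that distance was present at 7 of the 10 starts and at 3.21% of all 32851 starts. The pyrimidine run was present at 6 of the 10 starts and at 22.2% of all. The start of Zfas1 and the upstream start of Gas5 held neither. These are letter matches, not mapped factor sites.

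Gastruloids are aggregates of embryonic stem cells that elongate and form derivatives of the germ layers in culture, without extraembryonic tissue or an implanted embryo around them. All were made from 1 wild-type line, E14Tg2A (E14), with 300 cells seeded in a well, 48 h of aggregation and then 3 uM CHIR99021, a GSK3 inhibitor that activates Wnt signalling. MULTI-seq experiments 1, 2 and 3, in which a lipid-anchored barcode marks the gastruloid each cell came from, and 1 experiment without such barcodes (10X) were sequenced. The gastruloids used came from days 3 (24 gastruloids), 3.5, 4, 4.5 and 5 (16 each) of MULTI-seq 3. MULTI-seq 2 gave days 4 (11) and 4.5 (12), and MULTI-seq 1 day 5 (24), after leaving out 1 gastruloid with under 30 cells. MULTI-seq 2 also had lanes of days 3 and 3.5 (pools A and C), which hold no cells in the authors' final table and enter no value here. Days 3.5 and 4 of MULTI-seq 3 were labelled and loaded as 1 pool, as were days 4.5 and 5. Days 4 and 4.5 of MULTI-seq 2 were in pools B and C, each holding both days. Only pool B had cells with a gastruloid call and entered the fits. Day 3 of MULTI-seq 3 was a pool of its own, so its comparison with day 3.5, and that of day 4.5 with day 4, cannot be told apart from the pool. The barcode, and hence the gastruloid, is the replicate throughout, lanes being technical splits of a pool, and the labels do not say whether gastruloids came from separate cell cultures, so p-values measure the spread between these gastruloids, which may be technical.

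The 18 lanes with cells in the authors' final table hold 77674 cells under 25 cell type names. A gastruloid gave 1293296 to 57333371 unique molecular identifiers (UMIs), of which a member's own count lay between 45 (Snhg3, MULTI-seq 1) and 26547 (Gas5, day 4 of MULTI-seq 3). Lanes of 2 libraries shared at most 15 cell barcodes, and at most 0.408% of the smaller. The median mitochondrial share of a lane was 1.94 to 2.26% in MULTI-seq 3 and 4.85 to 5.48% in the other experiments, and ribosomal protein genes took 23.7 to 32.7% of UMIs. Checked against markers, Meox1 was highest in Mature Somites, Tbx6 in Late Posterior PSM (presomitic mesoderm), Sox2 in Late Spinal Cord, Sox17 in Mature Endoderm, Cdh5 in Endothelium and Noto in Notochord. Other listed markers were highest outside their type: Isl1 (cardiopharyngeal) and Dll3 (presomitic) in Neurons, Gata6 (cardiopharyngeal) in Anterior Primitive Streak, Foxa2 (endoderm, also notochord) in Notochord, Pecam1 (endothelium) in PGCs and Prdm1 (germ cell) in Cardiopharyngeal Mesoderm. Of the streak list T was highest in Notochord and Mixl1 and Eomes in Early Nascent Mesoderm, and of the epiblast list Utf1 and Dnmt3b in PGCs and Pou5f1 in Primitive Streak.

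Levels are in CPM, a gene's UMIs scaled to a total of 1000000 per gastruloid (or per type or class within it), and because transcripts of different genes are not compared per length, genes are compared with themselves only. Zfas1 stood at 131 ± 14.3 (SD, n = 24) on day 3, 123 ± 8.63 (n = 16) on day 3.5, 81.7 ± 4.51 on day 4, 95.3 ± 11.02 on day 4.5 and 86.3 ± 5.31 on day 5 of MULTI-seq 3. Snhg3 went from 155 ± 8.81 on day 3 to 123 ± 20.04, 80.4 ± 15.3, 104 ± 22.8 and 88.2 ± 14.1 on the later days. Snhg12 went from 69.1 ± 7.47 on day 3 to 63.8 ± 13.0, 35.2 ± 8.07, 43.4 ± 9.56 and 43.4 ± 6.19. For these 3 genes the mean was highest on day 3, lowest on day 4 and higher on day 4.5 than on day 4. Days 3 and 4.5 were in other pools than days 3.5 and 4, so day and pool cannot be told apart across them. Gas5 stayed within a narrower span, from 449.7 ± 19.6 on day 4 to 509 ± 32.4 on day 3.5. Snhg5 was 45.5 ± 4.55 and 45.8 ± 4.67 on days 3 and 3.5, then 31.6 ± 3.15, 32.0 ± 3.96 and 29.0 ± 2.77. 1110038B12Rik was lower and higher in turn, from 248 ± 13.9 through 218 ± 14.0, 188 ± 7.42 and 220.3 ± 12.1 to 185 ± 4.78. A gastruloid's sum mixes its cell types, so fewer cells of a high type and less RNA per cell cannot be told apart in these levels.

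**Figure D1:**
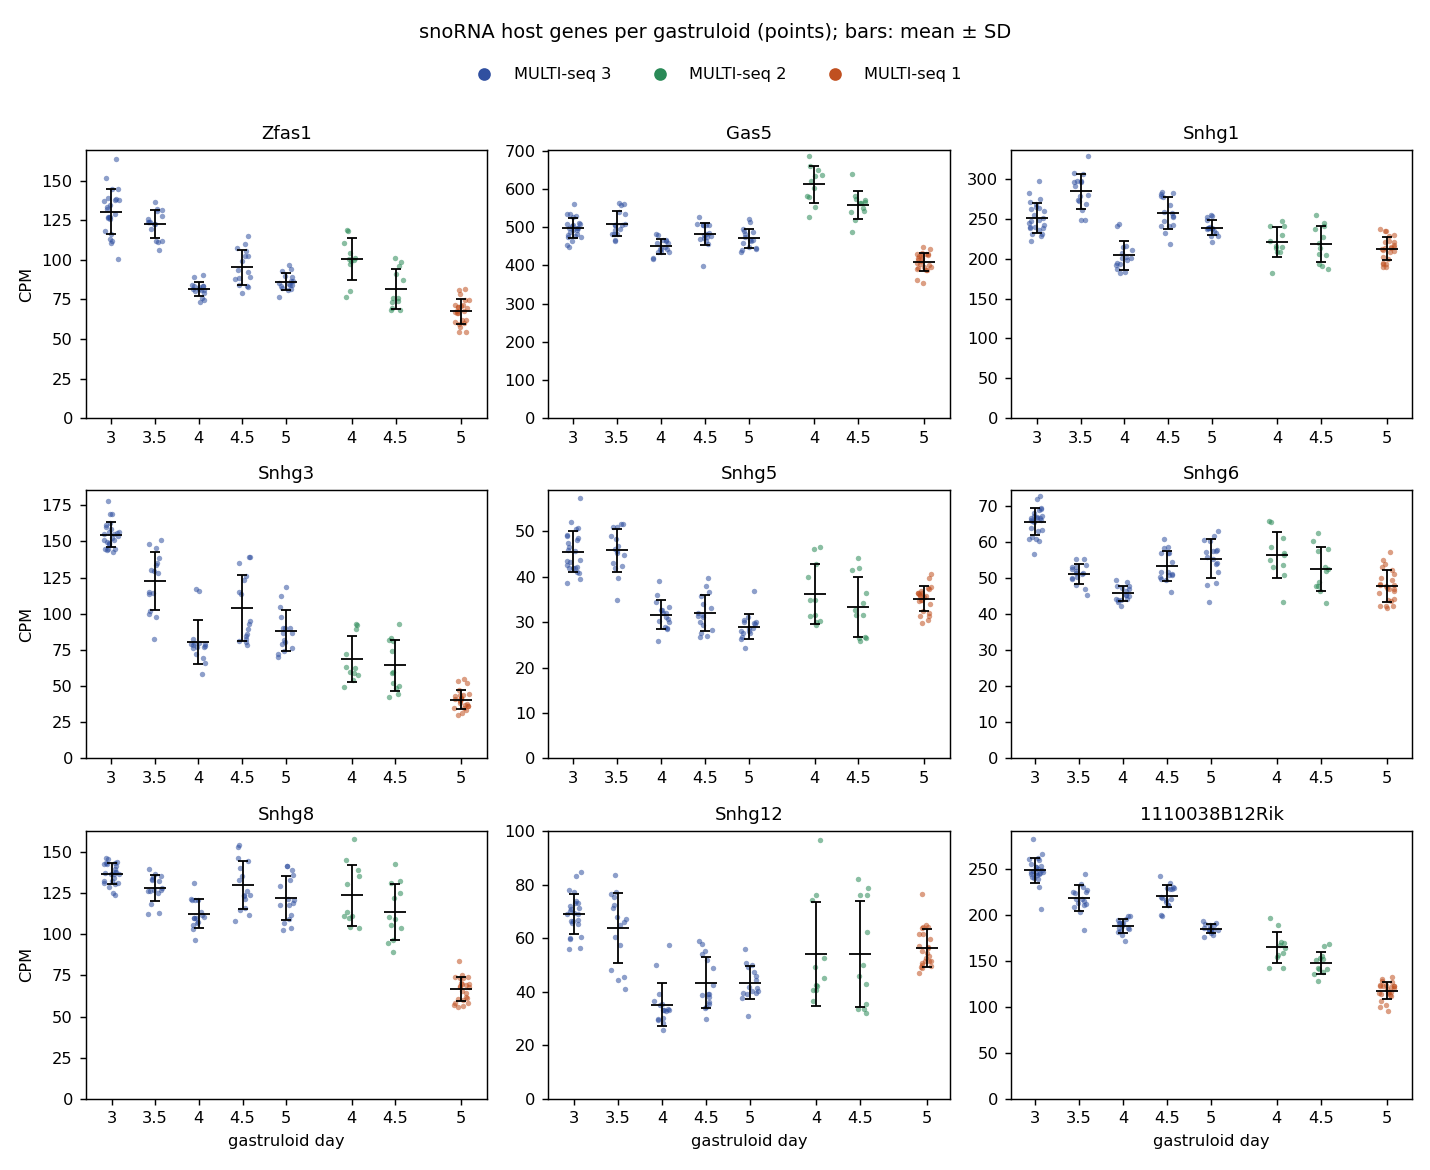
Level of each of the 9 host genes in every gastruloid (points, CPM, linear axis from 0) by day and experiment, with the mean and SD as bars. In MULTI-seq 3 all 9 genes are lower on day 4 than on day 3.5, and Zfas1, Gas5, Snhg3, Snhg8 and 1110038B12Rik are lowest on day 5 of MULTI-seq 1.

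Between days 3.5 and 4 of MULTI-seq 3, within 1 pool, all 9 host genes were lower on day 4. At an adjusted p under 0.05, 29.2% of all 13262 genes tested were called lower in this comparison and 60.4% in either direction, and since the genes may have been chosen on it, nothing is read from the count. Zfas1 ranged from 106 to 137 (median 124) CPM on day 3.5 and from 73.6 to 90.2 (median 81.6) on day 4. The 2 days did not overlap, and the log2 fold change was -0.61 ± 0.037 (SE). Snhg1 did not overlap either, with 248 to 329 (median 286) on day 3.5, 182 to 243 (median 201) on day 4 and a log2 fold change of -0.50 ± 0.041. Snhg12, the host of Snora16a, Snora44 and Snora61, had the largest estimate, -0.87 ± 0.102, with 41.0 to 83.6 (median 66.6) against 25.8 to 57.3 (median 33.2). Its days overlapped, although all 16 day 4 gastruloids lay below the day 3.5 median. Snhg3 fell by 0.63 on the log2 scale and Snhg5 by 0.56, while 1110038B12Rik, Snhg8, Gas5 and Snhg6 fell by 0.24, 0.21, 0.21 and 0.19. In Snhg8, 15 of 16 day 4 gastruloids lay below the earlier median, and in the other 8 genes all 16 did. How many of all genes separated as far between these days was not counted, so nothing is read from these separations.

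Genes that work with snoRNAs were counted from lists beside the hosts, where 29.2% of all genes were called lower and 31.1% higher. Of 15 proteins of snoRNA particles and their assembly, 15 were called lower on day 4 (median log2 fold change -0.27), led by Rrp9 (-0.54), Nhp2 (-0.47), Nolc1 (-0.43) and Dkc1 (-0.38), the pseudouridine synthase. Among 21 other snoRNA hosts that were tested, 14 were lower and 2 higher (median -0.24), with Snhg4 at -0.93, Snhg11 at -0.63, Snhg15 at -0.53 and Snhg16 at -0.47. Of 77 ribosomal protein genes tested, 23 were lower and 3 higher, with a median of -0.04, a share lower near that of all genes (29.2%). Of 14 nonsense-mediated decay factors 6 were lower and 0 higher (median -0.05), Smg5 (-0.21) leading. Of 12 targets of the integrated stress response, the pathway through Atf4, 11 were lower and 1 higher (median -0.60), with Chac1 at -2.68, Atf3 at -2.25 and Trib3 at -1.79. Of 12 proliferation genes 4 were higher and 5 lower (median -0.04), with Mcm2 at -0.38 and Mki67 at 0.37, and of 10 immediate early genes 2 were higher and 3 lower (median 0.05). The median over all genes tested was 0.01.

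Between days 4.5 and 5 of MULTI-seq 3 the differences were smaller, and 3 of 9 genes were called lower (7.11% of all 12298 genes were), a count from which nothing is read. 1110038B12Rik ranged from 199 to 242 (median 219) on day 4.5 and from 176 to 194 (median 184) on day 5, without overlap, a log2 fold change of -0.27 ± 0.022. Zfas1 was lower by a log2 fold change of -0.16 ± 0.049 and Snhg1 by -0.12 ± 0.034, with 14 and 16 of the 16 day 5 gastruloids below the day 4.5 median. The estimates of Snhg3 (-0.25 ± 0.097) and Snhg5 (-0.16 ± 0.058) were of similar size but were not called. Snhg6 (0.04 ± 0.051) and Snhg12 (-0.01 ± 0.096) stood close to 0. Snhg1 lost its call without lane C of the pool (log2 fold change -0.11), and both Zfas1 (-0.14) and Snhg1 (-0.11) lost it without the filter on low counts. Over all genes 47.2% of calls were higher, against 62.9% without the filter and 58.3% without TMM scaling. Among snoRNA particle proteins 6 of 15 were lower and 0 higher (7.11% of all genes lower), with Rrp9 at -0.21.

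MULTI-seq 2 gave days 4 and 4.5 within 1 pool and in other gastruloids, a pair that MULTI-seq 3 held only across pools. Zfas1 ranged from 76.8 to 119 (median 100.4) on day 4 and from 68.2 to 101 (median 76.2) on day 4.5, and 11 of 12 day 4.5 gastruloids lay below the day 4 median. The 2 days overlapped, and Zfas1 fell by 0.32 on the log2 scale (SE 0.0874, adjusted p = 0.0241, edgeR quasi-likelihood test). Gas5 fell by 0.16 (SE 0.0476, adjusted p = 0.0444), from 612 ± 48.5 (n = 11) to 558 ± 36.9 (n = 12), again with 11 of 12 below the earlier median. 1110038B12Rik missed the threshold at a log2 fold change of -0.18 ± 0.058 (adjusted p = 0.0541), and the other 6 genes had estimates between -0.14 and -0.01. Of the 9 genes 2 were thus called lower, against 4.33% of 11064 genes. Neither call was kept without lane 3 of the pool (adjusted p = 0.138 for Zfas1 and 0.163 for Gas5) or with at least 100 cells per gastruloid (0.151 and 0.141), where 1110038B12Rik was called instead (0.0323). Gas5 also lost its call without TMM scaling (0.0539) and without the filter on low counts (0.0923). Over all genes 41.2% of calls were higher, against 57.3% without TMM. Of the 15 snoRNA particle proteins only Naf1 (-0.35) was called, lower.

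**Figure D2:**
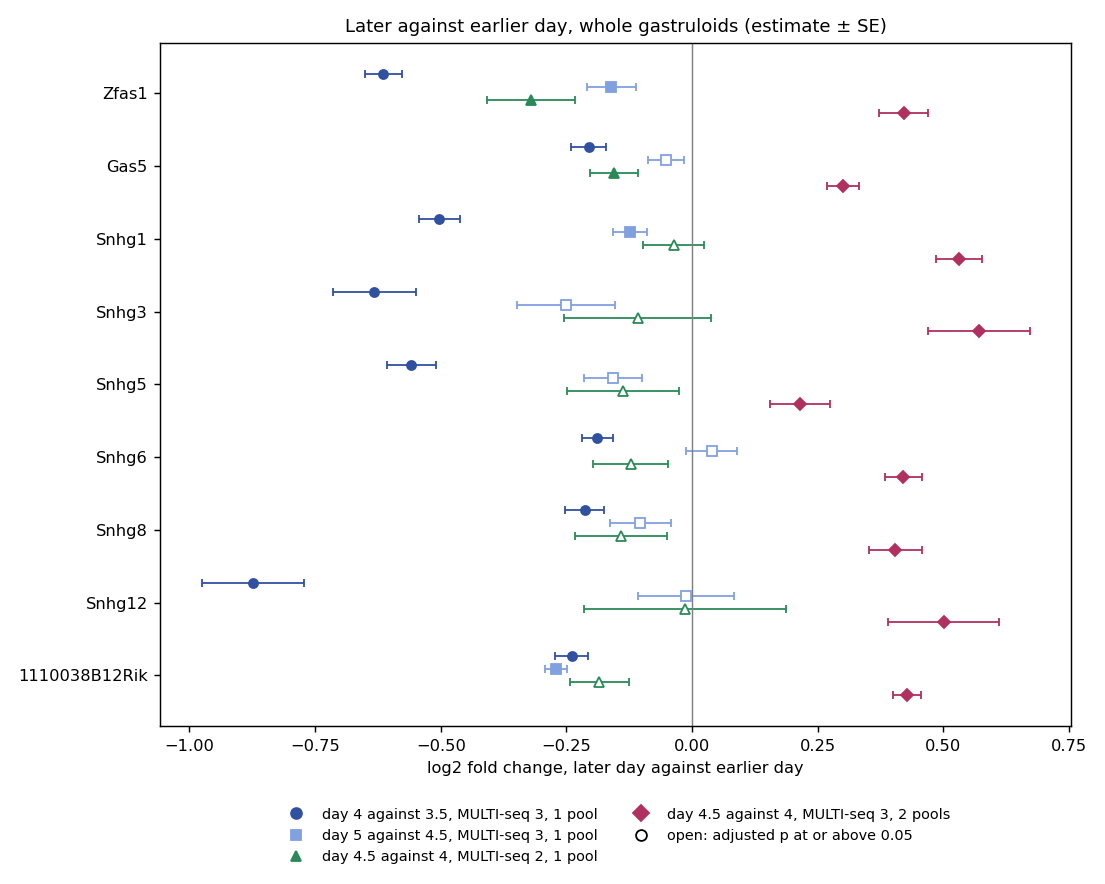
Log2 fold change (x axis, estimate ± SE) of the 9 host genes between successive days, with filled symbols for an adjusted p under 0.05 and open symbols otherwise. All 9 estimates are below 0 for day 4 against day 3.5 and all 9 are above 0 for day 4.5 against day 4 across pools of MULTI-seq 3 with TMM scaling (Snhg5 at 0.02 without it), whereas in MULTI-seq 2 the day 4.5 estimates lie between -0.32 and -0.01.

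Across pools of MULTI-seq 3, all 9 genes were called higher on day 4.5 than on day 4 with TMM scaling, and 8 without it (32.4% of 12843 genes were called higher with TMM). 1110038B12Rik did not overlap, with 171 to 198 (median 189) on day 4 and 199 to 242 (median 219) on day 4.5, a log2 fold change of 0.43 ± 0.028. Snhg3 was higher by 0.57 ± 0.102, Snhg1 by 0.53 ± 0.046 and Snhg12 by 0.50 ± 0.110, and Snhg5 had the smallest estimate, 0.21 ± 0.060. Without TMM these came to 0.23 for 1110038B12Rik, 0.37 for Snhg3, 0.33 for Snhg1, 0.30 for Snhg12 and 0.02 for Snhg5, which was not called and whose mean CPM was 31.6 on day 4 and 32.0 on day 4.5. The day 4.5 to day 4 difference was larger in MULTI-seq 3 than in MULTI-seq 2 by 0.73 ± 0.096 (log2) for Zfas1, 0.60 for 1110038B12Rik and 0.67 for Snhg3, and 8 of 9 genes were called in a fit of that difference between experiments, against 33.9% of 12551 genes. Snhg12 (0.51 ± 0.222) was not called, and Snhg5 (0.34) lost its call without TMM scaling (0.13). In the fit without TMM the median of this difference over all genes was -0.22. The difference was then 0.52 for Zfas1, 0.39 for 1110038B12Rik and 0.46 for Snhg3, and the other called genes lay between 0.23 and 0.35. Since 1 side of it is a MULTI-seq 3 day difference, this too is a description. Pools differ on 1 side of this comparison and not on the other, so pool and experiment cannot be told apart. From day 3 to day 3.5, also across pools, 8 genes were lower (35.6% of 11981 genes were called lower), Snhg6 without overlap at 56.6 to 72.8 against 45.4 to 55.5 and -0.52 ± 0.029, while Snhg1 had an estimate of 0.01 ± 0.034. Of ribosomal protein genes, 77 of 77 were lower from day 3 to 3.5 and 76 of 77 higher from day 4 to 4.5. Day and pool change together at both steps. The fits use TMM scaling, which shifts the median of all genes across pools. Without it that median moved by 0.16 for day 3.5 against day 3 and by -0.20 for day 4.5 against day 4, and the number of host genes called lower on day 3.5 fell from 8 to 4, with Gas5 and Snhg5 turning to 0.03 and 0.01 and Snhg1 called higher at 0.18. All genes moved likewise, 72.1% of all calls being higher there against 52.5% with TMM. For day 4.5 against day 4 the share was 24.5% without TMM and 38.0% without the filter, against 48.95%. Within pools the median moved by at most 0.03.

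Since cell types differ between days, the 3 day pairs within 1 pool were also read within the authors' cell types. From day 3.5 to day 4, Early Posterior PSM had 8 of 9 host genes lower (18.6% of genes called lower there), the exception being Snhg6 at -0.13. Snhg1 did not overlap in these cells, at 267 ± 16.3 (n = 13) on day 3.5 and 194 ± 12.3 (n = 16) on day 4, and Zfas1 went from 124 ± 9.68 to 82.4 ± 21.4. Caudal Epiblast had 6 of 9 lower (10.2% of genes), with Snhg5 at -0.60 ± 0.084 and Snhg12 at -0.51 ± 0.081. Late Posterior PSM had 5 of 9 lower (5.9% of genes), and in this type Zfas1, Gas5 and Snhg1 did not overlap between 4 and 14 gastruloids. How many of all genes did not overlap there was not counted, so nothing is read from this. Early Spinal Cord had Zfas1 (-0.57), Snhg12 (-0.54) and Snhg3 (-0.34) lower (1.45% of genes). In Primitive Streak (5.58% of genes called in either direction) and Early Nascent Mesoderm (0.732%) none of the 9 was called by edgeR or DESeq2, with 16 and 5 and with 6 and 4 gastruloids, and 2 and 1 had an unadjusted p under 0.05. Zfas1 was thus lower in 4 of the 6 types and had estimates of -0.33 and -0.35 in the other 2.

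From day 4.5 to day 5, 1110038B12Rik was lower in 7 of 8 types, by log2 fold changes from -0.40 in NMPs (neuromesodermal progenitors) to -0.18 in Mature Somites, and stood at -0.16 in Late Anterior PSM, where none of the 9 genes was called by edgeR or DESeq2 (2.86% of genes called in either direction) and 2 had an unadjusted p under 0.05. In Early Spinal Cord 6 of 9 host genes were lower (6.30% of genes), among them Zfas1, which went from 110.0 ± 13.7 (n = 15) to 84.8 ± 11.3 (n = 16), a change of -0.40 ± 0.055. NMPs had 5 lower (4.22% of genes), Late Posterior PSM 4 (3.53%) and Late Spinal Cord 4 (3.89%). Mature Somites had 3 genes higher, Snhg12 (0.46 ± 0.121), Snhg6 (0.23 ± 0.073) and Snhg8 (0.15 ± 0.045), against 6.37% of genes, and 1110038B12Rik as the lower call, against 7.59%. Mature Endoderm (0.992% of genes lower) and Somites (1.56%) had 1110038B12Rik as their only call. In MULTI-seq 2, Late Posterior PSM had 1 call, Snhg8 lower at -0.47 ± 0.098 (0.606% of genes lower), with 144 ± 16.7 (n = 6) on day 4 and 107 ± 13.1 (n = 8) on day 4.5. The other 4 types had 0 calls by edgeR and DESeq2, with 0.344% (Mature Somites), 0.366% (Cardiopharyngeal Mesoderm), 0.397% (Early Spinal Cord) and 0.431% (Somites) of all genes called, and 4, 2, 1 and 2 host genes there had an unadjusted p under 0.05. Snhg5 was below the count filter in Somites of that experiment, and groups there held 4 to 12 gastruloids. With at least 30 cells of the type, Late Posterior PSM of MULTI-seq 2 could not be fitted, and only 2 of 6 types for day 4 against 3.5 and 4 of 8 for day 5 against 4.5 could, so the other calls have no such check.

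**Figure D3:**
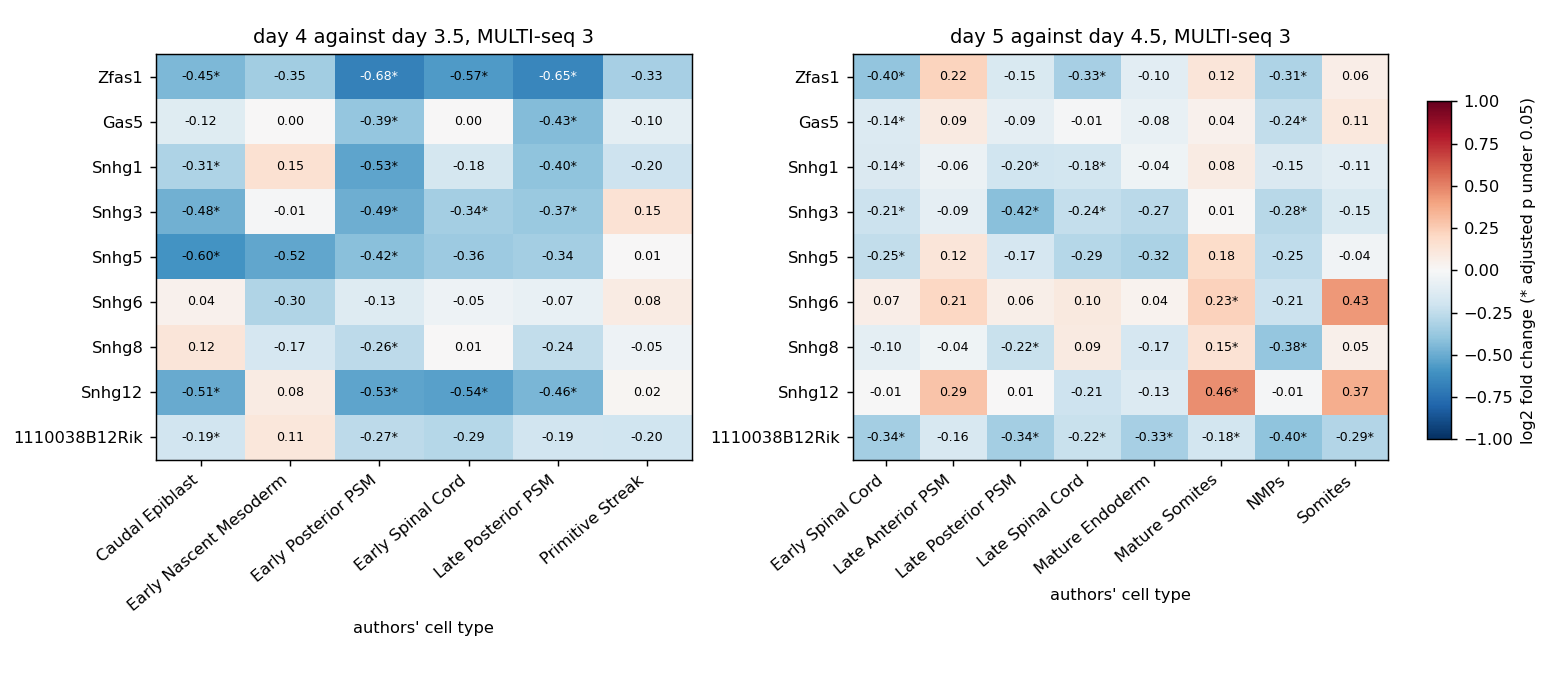
Log2 fold change of each host gene (rows) within each authors' cell type (columns), left for day 4 against day 3.5 and right for day 5 against day 4.5 of MULTI-seq 3, blue lower and red higher on the later day, with a star for an adjusted p under 0.05. On the left Zfas1 is negative in all 6 types, and on the right 1110038B12Rik is negative in all 8.

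The day differences in summed levels were split, as arithmetic, into a part from changed shares of cell types and a part from changed levels within types. From day 3.5 to day 4 the part within types came to 85.4% of the difference for Zfas1, 88.6% for 1110038B12Rik and 59.7% for Snhg1. For Snhg3 it was 51.7%, for Snhg12 50.7% and for Snhg8 44.98%. With the weights of the earlier day alone these 3 came to 41.7, 46.8 and 58.0%, and Snhg1 to 52.2%, so the order of the shares depends on the weights. For Gas5 (116%) and Snhg6 (105%) the part within types exceeded the whole difference (126.5 and 165.3% with the earlier day's weights), the changed shares of types going the other way. From day 4 to day 4.5 of MULTI-seq 3 9.48% of the rise of Snhg3 and 11.2% of that of Snhg12 lay within types (22.4 and 4.19% with the earlier day's weights), against 99.2% for 1110038B12Rik (95.9%). These 2 days are of different pools, and the split was made on CPM without TMM scaling. Without that scaling the median of all genes moved by -0.20 between them, so these shares depend on the scaling. A split with TMM was not made. In MULTI-seq 2, where days 4 and 4.5 shared 1 pool, the part within types was below 0 for every host gene with either weights. It was -15.2 CPM for Snhg3 and -12.4 CPM for Snhg12, while the parts from changed shares of types were 12.6 and 13.7 CPM. The whole differences of these genes there were -2.55 and 1.32 CPM.

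Neural cells were compared with mesodermal cells. Neural here means 6 authors' types (neurectoderm, spinal cord and neurons) and mesodermal 10 types (nascent mesoderm to somites, head and cardiopharyngeal mesoderm), compared within the same gastruloids with the gastruloid as a block. The types were named by the authors from expression, so each value below holds given those names. Per the authors' deposited gene table, 7 of the 9 host genes have no entry, as have 1879 of all 32285 features. Snhg6 is not marked as highly variable and Snhg12 is, and whether values of Snhg12 entered the naming of the types was not tested. Summed neural markers (Sox2, Sox1, Pax6) reached 65.9 to 294.9 CPM in neural and 3.57 to 19.9 in mesodermal cells over the 7 experiment days tested.

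Snhg3, the host of Snora73a and Snora73b, differed little between the classes on day 3 and was higher in neural cells from day 3.5 on. On day 3 of MULTI-seq 3 it ranged from 117 to 223 (median 160.2) in neural and from 107 to 199 (median 160.3) in mesodermal cells of 22 gastruloids, a log2 difference of -0.04 ± 0.047. On day 3.5 the 2 classes no longer overlapped, at 131 to 177 (median 153) against 66.3 to 127 (median 96.7), and neural cells were higher in 13 of 13 gastruloids by 0.56 ± 0.068. The difference was 0.65 on day 4 (9 of 9 gastruloids), 0.88 on day 4.5 (14 of 14) and 0.90 ± 0.042 on day 5 (16 of 16). In MULTI-seq 2 it was 1.00 ± 0.079 on day 4.5 (8 of 8), and in MULTI-seq 1 it was 0.85 ± 0.071 on day 5 (21 of 22). In all days after day 3, Snhg3 was higher in neural cells, without overlap except in MULTI-seq 1. How many of all genes did not overlap between the classes was not counted, so nothing is read from the lack of overlap.

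The other H/ACA hosts were also higher in neural cells at late days. Snhg12 was higher on all 7 experiment days, from 0.22 ± 0.067 on day 3 (17 of 22 gastruloids) to 0.87 ± 0.087 on day 4.5 (14 of 14) in MULTI-seq 3. MULTI-seq 2 gave 1.20 ± 0.097, and MULTI-seq 1 gave 0.54 ± 0.048. On day 4.5 of MULTI-seq 2 it ranged from 54.9 to 88.4 (median 72.8) in neural and from 21.6 to 58.7 (median 32.5) in mesodermal cells. Snhg8 was lower in neural cells on day 3 (-0.14 ± 0.050, 6 of 22 higher), had no call on days 3.5 and 4, and was higher by 0.40 on days 4.5 and 5, by 0.49 in MULTI-seq 2 and by 0.34 in MULTI-seq 1. Its day 3 call was lost without TMM scaling and with DESeq2. Snhg5, a box C/D host, had no call on day 3 (0.03 ± 0.079) and was higher from day 3.5 on, by 0.25 to 0.53 in MULTI-seq 3, 0.71 in MULTI-seq 2 and 0.28 in MULTI-seq 1.

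Zfas1 and Gas5 went the other way early on. Zfas1 was lower in neural cells by 0.46 ± 0.061 (log2) on day 3 (90.6 ± 14.7 against 117 ± 18.4, n = 22) and by 0.39 ± 0.054 on day 3.5 (101 ± 11.6 against 122 ± 8.44, n = 13). It was higher by 0.39 ± 0.064 on day 4.5, in 14 of 14 gastruloids, and stood at 0.03 ± 0.032 on day 5, without a call. In MULTI-seq 1 on day 5 it was higher in neural cells by 0.35 ± 0.050 (20 of 22). Gas5 was lower in neural cells on day 3 in 22 of 22 gastruloids without overlap, at 375 ± 19.6 against 487 ± 36.2 and -0.47 ± 0.029, and on day 3.5 by 0.42 ± 0.047. It was again lower on day 5 of MULTI-seq 3 (-0.17 ± 0.026, lower in 15 of 16) and had no call in MULTI-seq 1 (-0.01 ± 0.029) or MULTI-seq 2 (0.03 ± 0.056). Snhg6 followed on days 3 (-0.49 ± 0.069) and 3.5 (-0.26 ± 0.063, or -0.15 without TMM scaling) and had no call later. Snhg1 differences were at most 0.18 in size, and 1110038B12Rik was lower in neural cells by 0.16 to 0.27 on 5 of 7 experiment days, with no call on days 3 and 4. The call of 1110038B12Rik in MULTI-seq 2 (-0.16 ± 0.054, adjusted p = 0.0246, edgeR quasi-likelihood test) was lost without the gastruloid block, with 30 cells per class, with DESeq2 and without the filter.

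Counted over the 9 genes, 1 was higher and 5 lower in neural cells on day 3 (23.1 and 24.5% of 6915 genes), 3 and 4 on day 3.5 (24.5 and 25.2%), 4 and 0 on day 4 (17.6 and 17.6%), 6 and 1 on day 4.5 (27.6 and 27.1%) and 5 and 2 on day 5 (33.2 and 35.6%). In MULTI-seq 2 the counts on day 4.5 were 6 and 1 (21.3 and 21%), and in MULTI-seq 1 on day 5 they were 5 and 1 (28.9 and 28.3%). What the classes held also changed: neural cells of MULTI-seq 3 were 76.5% Early Neurectoderm on day 3 and 51.0% Late Spinal Cord on day 5, while mesodermal cells were 67.1% Early Nascent Mesoderm on day 3 and 59.6% Mature Somites on day 5. Neural cells had more UMIs per cell on day 5 (33320 against 28290) and slightly fewer on day 3 (29360 against 30420), and the part of depth in the differences was not tested. Without TMM scaling the median of all genes moved by 0.09 on day 3 and 0.11 on day 3.5, and the day 3 counts became 2 higher and 3 lower, 1110038B12Rik being called higher there (0.13) and losing its day 3.5 call (-0.08). Over all genes 69.6% of the day 3 calls were then higher, against 48.5% with TMM, and 66.3% of the day 3.5 calls, against 49.3%. Zfas1, Gas5 and Snhg6 kept their direction on both days without that scaling. Without the filter on low counts, the day 4 counts became 2 higher and 1 lower, Snhg1 and Snhg5 losing their calls and Gas5 being called lower (-0.17).

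**Figure D4:**
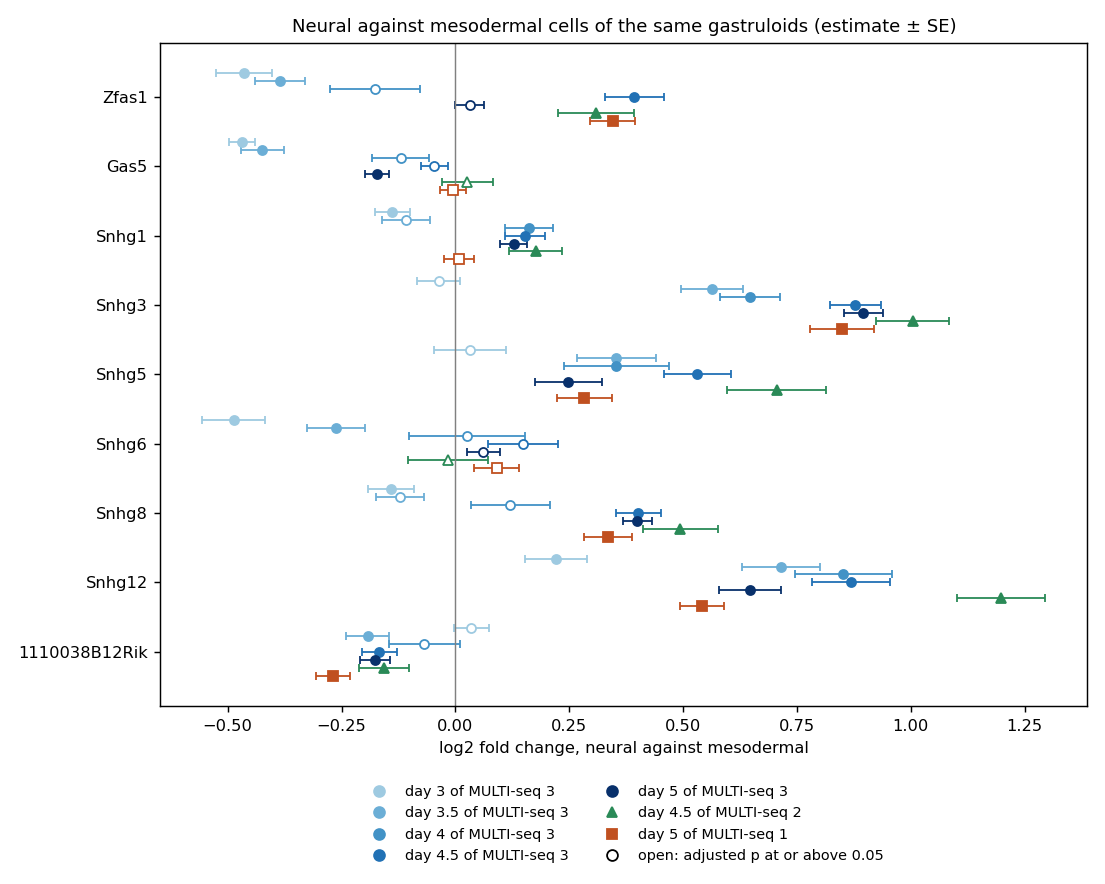
Log2 fold change of neural against mesodermal cells of the same gastruloids (x axis, estimate ± SE) for the 9 host genes on 7 experiment days, filled for an adjusted p under 0.05. Snhg3 and Snhg12 lie between 0.54 and 1.20 from day 3.5 on, Gas5 and Snhg6 are below 0 on days 3 and 3.5, and Zfas1 lies on both sides of 0.

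**Figure D5:**
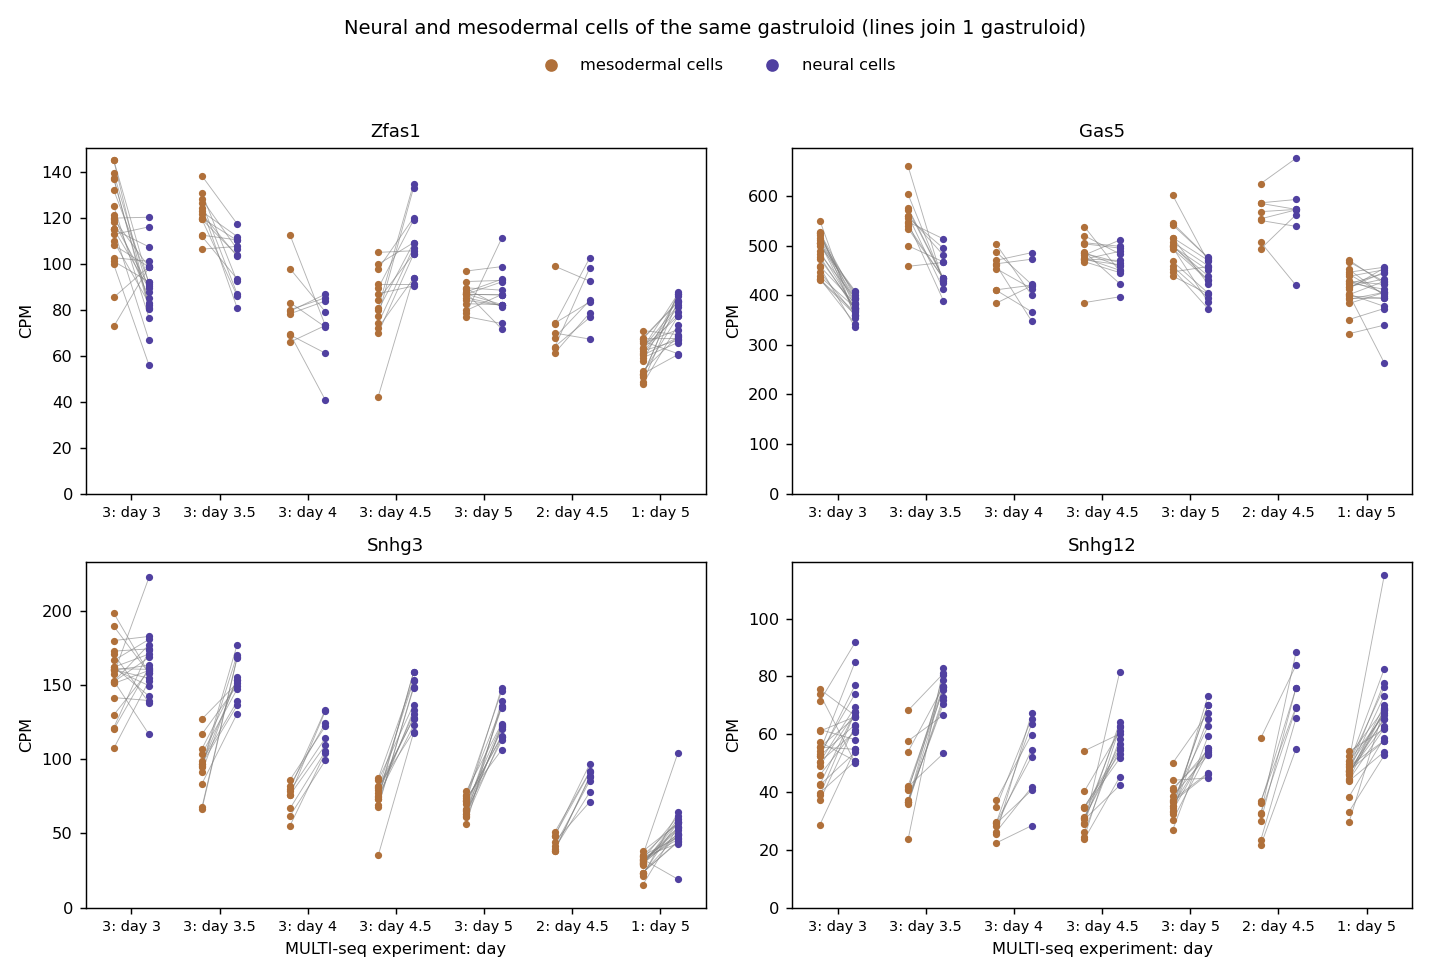
Levels (CPM, linear axis from 0) of Zfas1, Gas5, Snhg3 and Snhg12 in mesodermal and neural cells of each gastruloid, joined by a line, for 7 experiment days. Snhg3 lines rise in 13 of 13 gastruloids on day 3.5 of MULTI-seq 3 and in 16 of 16 on day 5, whereas Gas5 lines fall in 22 of 22 on day 3.

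Whether a neural to mesodermal difference itself changed was fitted in 1 model per pair, added after the values had been seen, and is given as a description. For Zfas1 it was smaller on day 5 than on day 4.5 of MULTI-seq 3 by 0.36 ± 0.070 (log2), the only call among 9 genes (2.81% of 11534 genes). Day 5 of MULTI-seq 3 also differed from day 5 of MULTI-seq 1, Zfas1 by -0.33 and Gas5 by -0.18, the 2 calls among 9 genes, against 6.58% of 10835 genes. From day 3.5 to day 4 the difference changed by 0.28 for Gas5 and 0.25 for Snhg1, both called, against 8.61% of 10691 genes, and neither call was kept without TMM scaling. Between MULTI-seq 3 and MULTI-seq 2 on day 4.5 none of the 9 was called by edgeR (0.835% of 10660 genes), and 1, Snhg12 at -0.35, had an unadjusted p under 0.05. Snhg3 was called in none of these 4 fits, with estimates from -0.14 to 0.06. The steps from day 3 to day 3.5 and from day 4 to day 4.5 were not fitted.

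Of 15 snoRNA particle proteins, 8 were called higher and 3 lower in neural cells on day 3 of MULTI-seq 3. On its later days 13, 14, 15 and 15 were higher, in MULTI-seq 2 14 and in MULTI-seq 1 15, and 0 were lower on those days, where 17.6 to 33.2% of all genes were higher. On day 5 of MULTI-seq 3 their median was 0.40, with Nhp2 at 0.80, Gar1 at 0.76 and Rrp9 at 0.70. Other snoRNA hosts were mixed on that day, 11 of 21 higher and 4 lower, with Snhg4 at 1.13 and Snhg18 at -1.004. Ribosomal protein genes had 35 of 77 higher and 15 lower on day 5 (median 0.03, with 33.2% of all genes higher and 35.6% lower). On day 3, 73 of 77 were lower (24.5% of all genes) and on day 3.5, 71 (25.2%), the days on which Zfas1, Gas5 and Snhg6 were lower in neural cells. Immediate early genes, which respond to dissociation among other signals, were lower in neural cells on day 5 in 8 of 8 tested (35.6% of all genes lower), led by Fosb (-2.45), and their part in the host gene differences was not tested.

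Among single cell types, Zfas1 had its highest mean in Notochord, the axial rod that secretes Shh, on 3 days of MULTI-seq 3. Its level there was 190.1 ± 10.3 (n = 3) on day 3.5, 142 ± 25.0 (n = 7) on day 4 and 169 ± 10.1 (n = 3) on day 5 of MULTI-seq 3. The next highest types were Primitive Streak at 145 and 109 and Mature Endoderm at 89.2. On day 5 the 3 Notochord values ran from 162 to 180.3, and no whole gastruloid of that day exceeded 96.7. On the other days too few gastruloids held 10 Notochord cells, and the level pooled over cells has no replicate. It was 167 on day 3 and 155 on day 4.5 of MULTI-seq 3, 179 on day 4 and 102 on day 4.5 of MULTI-seq 2, and 103 on day 5 of MULTI-seq 1, where the means of whole gastruloids were 131, 95.3, 101, 81.8 and 67.5. The highest means of a type with replicates were 132, 113, 117, 105 and 74.7 in the same order. On day 4.5 of MULTI-seq 2 that type, Late Spinal Cord, thus stood above the pooled Notochord level, and on the others the highest type stood below it. Snhg3 had its lowest mean in Notochord on days 3.5, 4 and 5 of MULTI-seq 3, at 58.4 ± 37.7, 48.0 ± 9.69 and 43.6 ± 8.30, with wide spread on day 3.5. Other hosts differed in their place there. Snhg5 had its lowest mean in Notochord on days 3.5 (23.1 ± 3.24) and 4 (24.4 ± 4.49). On day 3.5 Notochord had the highest mean for 6 of the 9 genes, Gas5 (669.8 ± 72.3), Snhg1, Snhg6, Snhg8 and 1110038B12Rik beside Zfas1, and on day 5 for Snhg1 and Snhg5 as well, each with wide spread (337.6 ± 105.9 and 36.0 ± 23.4, n = 3). These cells were few, 63, 423 and 138 on days 3.5, 4 and 5.

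Gas5 was highest in Mature Endoderm in all experiments from day 4 on, with 530.2 ± 46.6 (n = 14) on day 4, 577 ± 58.5 (n = 7) on day 4.5 and 558 ± 68.9 (n = 9) on day 5 of MULTI-seq 3. The next types, Notochord at 521 and 542 on days 4 and 5 and Mature Somites at 497 on day 4.5, differed from it by less than 2 SD. In MULTI-seq 2 and MULTI-seq 1 Mature Endoderm stood at 699 ± 71.8, 580.2 ± 36.7 and 492 ± 37.2, and on day 4.5 Early Spinal Cord at 579 was level with it. Snhg3 and Snhg12 had their highest means in Early or Late Spinal Cord on every day after day 3. The type next in order lay close, as on day 5 for Snhg3 with 128 ± 9.73 in Late and 124 ± 18.7 in Early Spinal Cord, and on day 3.5 with 161 ± 23.5 in Early Spinal Cord and 157 ± 17.6 in Caudal Neurectoderm. Snhg12 was lowest in Head Mesoderm in MULTI-seq 3 from day 4 on (21.1 ± 2.48, 17.7 ± 2.497 and 25.0 ± 5.82), 2.38 to 3.42 times below its highest type. 1110038B12Rik was lowest in NMPs on day 4.5 of MULTI-seq 3 (177 ± 22.6, n = 13, while in MULTI-seq 2 Mature Endoderm was lowest at 122) and on day 5 of MULTI-seq 3 and 1 (138 ± 13.2, n = 16, and 88.4 ± 19.3, n = 22).

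Levels also differed between experiments at the same day, where experiment, culture, library and lanes cannot be told apart. On day 5, 7 of 9 genes were higher in MULTI-seq 3 than in MULTI-seq 1 (30% of 11718 genes higher, and 33.7% lower). Snhg3 ranged from 69.9 to 118 (median 86.6) against 30.03 to 54.9 (median 40.8) and was higher by 1.34 ± 0.073 (log2), without overlap. Snhg8 was higher by 1.10 ± 0.052, at 122 ± 13.4 against 66.7 ± 7.28, and 1110038B12Rik by 0.88 ± 0.028, at 185 ± 4.78 against 117 ± 9.45, and neither overlapped. Snhg5 had no call (-0.05 ± 0.041), while Snhg12 had a log2 fold change of -0.15 ± 0.063 (-0.37 without TMM scaling), a call lost without lane 1 of MULTI-seq 1 and without lanes B or C of MULTI-seq 3. Ribosomal protein genes were higher in 76 of 77 and lower in 1, with a median of 0.62, and the median of all genes moved by -0.22 without TMM scaling, after which Snhg5 was called lower as well (-0.28) and 18.1% of all calls were higher, against 47.1% with TMM.

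On day 4, 7 of 9 genes were lower in MULTI-seq 3 than in MULTI-seq 2 (23.1% of 13713 genes lower). Gas5 did not overlap, at 417 to 483 (median 447) against 526 to 686 (median 621), and was lower by 0.61 ± 0.035 (log2). Snhg3 (0.08 ± 0.110) and 1110038B12Rik (0.03 ± 0.043) had no call. On day 4.5, 5 genes were higher in MULTI-seq 3 (21.1% of 11695 genes higher), Snhg3 by 0.75 ± 0.135 and 1110038B12Rik, without overlap, by 0.63 ± 0.041, and Gas5 was lower by 0.17 ± 0.041. Only Gas5 was thus called in 1 direction, lower, on both days. Without TMM scaling the median of all genes moved by 0.16 on day 4, and there the calls of Snhg1 and Snhg8 were lost while 1110038B12Rik was called higher (0.19). Over all genes 77.4% of the day 4 calls were then higher, and 60.7% without the filter, against 49.9%, and on day 4.5 the share was 39.3% without TMM against 49.7%.

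Over 54 states of cell type and day in MULTI-seq 3 with at least 100 cells each, the patterns of the 9 genes were compared with 5545 genes by Pearson's r of log2(CPM + 1), as a description over states that share lanes and depth. The nearest gene to Snhg3 was Snhg4 (r = 0.96), another H/ACA host, followed by the chaperonin Hspe1 (0.92) and Lyar (0.91). Snhg5 was nearest to Pop1 (0.90) and Snhg8 to Mycl (0.85) and Sp8 (0.84), and the host Snhg15 (0.85) was among the genes nearest to Snhg12. Gas5 was nearest to Rpl9 (0.79) and Snhg6 to Cox17 (0.83) and Rpl27a (0.76). Zfas1 (Tmem14c, 0.75), Snhg1 (Mrpl46, 0.70) and 1110038B12Rik (Atp5f1, 0.64) had less similar neighbours. Among themselves the 9 genes gave r from -0.20 to 0.83 over 36 pairs (median 0.44), and their r with UMIs per cell over the states lay between -0.24 and 0.22. Epb41l4aos, also a snoRNA host, had the highest mean r over all 9 (0.58).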

How the data were processed

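The authors deposited UMI counts per gene and cell barcode for each lane, per the file headers, with a table of final cells that names cell type, day and MULTI-seq barcode. Cell Ranger 6.0.0, Seurat and the mm10 build are named in the submitters' processing notes; intron counting and strand use are unstated there. Cells whose MULTI-seq barcode was called negative, doublet or unidentifiable were left out of gastruloid sums, and no doublet caller was run. Final cells with a barcode call made up 98.95% of MULTI-seq 1, 42.89% of MULTI-seq 2 and 75.82% of MULTI-seq 3. Counts were summed per gastruloid (at least 30 cells), per gastruloid and cell type, or per gastruloid and class (at least 10 cells), and fitted over all genes with edgeR 4.0.16 in R 4.3.3 (TMM, filterByExpr, quasi-likelihood test, Benjamini-Hochberg adjustment, threshold 0.05). Classes were fitted with the gastruloid as a block, since both come from 1 gastruloid. A type needed 4 gastruloids per day, and a class comparison 6 gastruloids. The fits were tested on simulated data. Alternatives were RLE factors, DESeq2 1.42.0, no filter, higher cell minimums, no ribosomal protein or mitochondrial genes, each lane left out and no block. The 9 genes, which are all named, and the lists (other hosts, ribosomal protein, snoRNA particle, nonsense-mediated decay, stress response, immediate early and proliferation genes, whose members were named by fold) were chosen with earlier results of these data known, and the difference-of-differences fits and the fits without TMM were added after values had been seen.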

Additional observations from a re-analysis of the deposited data

Results flagged for a closer look

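Within cell types, 9 of 189 groups of 4 to 10 gastruloids held 1 value far from the rest (4.76%, where chance gives about 1 in 20). In Mature Somites on day 4.5 of MULTI-seq 2 these were the lowest of 8 for 1110038B12Rik (107.4 CPM, the nearest 138.9), the lowest for Snhg3 (25.77, the nearest 39.58) and the highest for Snhg6 (85.91, the nearest 48.29). In Early Spinal Cord on day 3.5 of MULTI-seq 3 they were the highest of 10 for Gas5 (532.4, the nearest 469.3) and the lowest for Snhg1 (230.6, the nearest 280.8) and Snhg8 (104.1, the nearest 123.4). On day 4 they were the highest of 4 in Early Nascent Mesoderm for 1110038B12Rik (332.7, the nearest 198.0) and Snhg1 (418.7, the nearest 237.2), and the highest of 5 in Primitive Streak for Snhg1 (285.8, the nearest 231.5).

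Of 45 differences between effects, 13 were called (adjusted p under 0.05, edgeR), in fits added after the values had been seen. Of these 8 came from the fit of days between experiments, which called 33.9% of all genes, and the other 4 fits called 0.835 to 8.61%. The day 4.5 to day 4 difference was larger in MULTI-seq 3 than in MULTI-seq 2 by 0.7321 (log2) for Zfas1, 0.4466 for Gas5, 0.5589 for Snhg1, 0.6694 for Snhg3, 0.3434 for Snhg5, 0.5339 for Snhg6, 0.537 for Snhg8 and 0.6026 for 1110038B12Rik, and there the pool moves with the experiment. Without TMM scaling these 8 lay between 0.13 and 0.52, Snhg5 without a call. The neural to mesodermal difference changed from day 3.5 to day 4 by 0.2801 for Gas5 and 0.2489 for Snhg1, and from day 4.5 to day 5 by -0.3561 for Zfas1. Between MULTI-seq 3 and MULTI-seq 1 on day 5 it differed by -0.328 for Zfas1 and -0.1785 for Gas5. In the authors' deposited gene table, 7 of the 9 host genes that the lanes count have no entry, as have 1879 of all 32285 features.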

How the results depend on the processing

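Over counts of called host genes, 274 of 301 alternatives stayed within 1.5 times the main value. Higher and lower calls were counted apart, and counts of 0 that stayed 0 are among the 274. Over single genes 1343 of 1421 kept direction and side of the threshold. Where they did not, the cause was not tested. For day 5 against 4.5, the 3 genes called lower became 1 with no filter and 2 to 3 without a lane. In MULTI-seq 2 the 2 lower became 1 (Zfas1) without TMM and with no filter, 1 with 100 cells (1110038B12Rik, neither of the 2 being kept), and 0 to 2 without a lane. Day 3.5 against 3 gave 1 higher and 4 lower without TMM. On day 5, the 1 gene lower in MULTI-seq 3 than in MULTI-seq 1 became 0 with RLE, DESeq2, no filter or no ribosomal protein and mitochondrial genes, 2 without TMM, and 0 to 1 without a lane. On day 4, 1 gene was higher than in MULTI-seq 2 without TMM and with 100 cells. Neural calls on day 3 were 2 higher and 3 lower without TMM, and on day 4 they were 2 higher and 1 lower with no filter. Without the replicate block the 1 lower neural call of MULTI-seq 2 became 0 (1110038B12Rik), as it did with 30 cells, DESeq2 or no filter, and day 3.5 gained Snhg8 as a lower call. With 30 cells of a type fewer types could be fitted, and within those the lower calls were 13 against 15 for day 5 against 4.5 and 15 against 14 for day 4 against 3.5. Neural and mesodermal classes with 30 cells could not be fitted on days 3, 3.5 and 4. Differences of differences without TMM gave 0 calls for day 4 against 3.5 and 2 for day 5 against 4.5.

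With weights of the earlier day, the part within types moved by at least the earlier day's SD between gastruloids in 3 of 45 cases. It came to -9.431 CPM for Snhg6 (day 4 against 3.5), -28.08 for Snhg3 (day 3.5 against 3) and 16.76 for Zfas1 (day 4.5 against 4). By less than that SD, Snhg5 for day 3.5 against 3 changed sign, from -1.331 to 0.03445. All reversals were of estimates without a call, except Gas5 (0.0333) and Snhg5 (0.0112) for day 3.5 against 3 without TMM. Snhg1 there was -0.0267 to 0.0433 without a day 3 lane. For day 5 against 4.5 Snhg12 was 0.0049 without TMM, 0.0057 with no filter and -0.0134 to 0.0018 without a lane. In MULTI-seq 2, Snhg1 was 0.0132 and Snhg3 0.0648 with 100 cells, Snhg3 -0.1511 to 0.0144 without a lane, and Snhg12 0.0038 without TMM, 0.2501 with 100 cells and 0.0328 to 0.1006 without a lane. Against MULTI-seq 2 on day 4.5 Snhg5 was 0.0177 with 100 cells, and -0.0696 to 0.0381 without a lane, 0.0035 without lane B of MULTI-seq 3. For neural against mesodermal cells, Snhg3 on day 3 (0.0562) and Snhg1 on day 3.5 (0.0019) turned without TMM, and Snhg6 on day 4 (-0.0214) with no filter. Without the replicate block Snhg5 on day 3 (-0.0156) and Snhg6 in MULTI-seq 2 (0.1122) turned, the latter also with 30 cells (0.0272). In MULTI-seq 1 Snhg1 was -0.008 with 30 cells, -0.0021 with RLE, -0.0055 without TMM and -0.0048 with DESeq2. Differences of differences without TMM turned for Snhg3 (-0.02011), Snhg8 (-0.02121) and 1110038B12Rik (0.0009536). Depth limits the lowest genes, a gastruloid holding as few as 45 UMIs of Snhg3.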

Other observations

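Libraries without a gastruloid barcode entered no comparison. In the 10X experiment, with 1 lane per day, all 9 host genes stood lower on day 4 than on day 3, with no replicate check. These are CPM without TMM scaling. The share of all genes lower between these lanes was not counted, so nothing is read from the count. Zfas1 was at 137 CPM on day 3 and 78.4 on day 4, Snhg3 at 43.1 and 22.3, Snhg12 at 99.4 and 62.3, Snhg5 at 60.5 and 43.1, Gas5 at 590.5 and 522, and 1110038B12Rik at 188 and 155. Snhg1 was at 248 and 209, Snhg8 at 78.6 and 64.4, and Snhg6 at 51.8 and 37.5. In pool C of MULTI-seq 2 (days 4 and 4.5 together), Gas5 stood at 501 in 1 lane and 641 in the other, a ratio of 1.28, while lanes of the other pools differed by at most 1.13-fold for any host gene.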
